A study of Mus musculus with 74 samples.

Results

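Line 264, a derivative of the mouse macrophage line RAW264.7 made in a study of the replacement histone H3.3, was compared with RAW264.7 itself after 120 min of lipopolysaccharide (LPS). The comparison took every gene of the deposited table for that time whose mean over the 12 library columns reached 1 normalized read, which kept 17450 of 24851 genes. A normalized read is a read count divided by 1 size factor per library. Values are given as replicate 1 and then replicate 2 of each group, and differences are line 264 minus RAW264.7 in log2(value + 1) ± SE from limma, n = 2 libraries per group. A gene was called lower or higher at an adjusted p (Benjamini-Hochberg over all 17450 genes) below 0.05.

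The groups used were RAW264.7 and line 264, each unstimulated and after 120 min, with line 3205 after 120 min set beside them. RAW264.7 is the unedited parent, a line of macrophage-like cells from a mouse tumour induced by Abelson leukaemia virus. The series describes RAW264.7 cells that are wild type, hypomorphic for H3.3 or without both of its genes, H3f3a and H3f3b, after CRISPR editing. The labels do not say which of these line 264 or line 3205 is. They name LPS for every stimulated group, but its dose in these lines is not stated in what was used here. A tissue tag reads bone marrow derived macrophage for these libraries, while the source is given as the RAW264.7 line. Each edited line is 1 line set against its parent, so effects of H3.3 and of line derivation cannot be told apart. Nothing says that the replicates were separate cultures, and the p-values then measure only the spread between these libraries, which may be technical. The 4 libraries compared held 28162576 and 29387007 reads for RAW264.7 and 36004724 and 29454942 for line 264. Over the 12 libraries the mitochondrial share was 0.303% to 0.615% in replicate 1 and 1.20% to 1.70% in replicate 2, and its part in the results was not tested.

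H3.3 is the histone H3 variant that is placed into chromatin outside DNA replication, above all at active genes and regulatory elements. It carries a serine at position S31 that the canonical H3 proteins lack, and this serine can be phosphorylated (H3S31ph). LPS acts through the receptor Tlr4 and its adaptors on the NF-kB and MAP kinase pathways. These switch on cytokine genes together with inhibitors that later end the response, such as Tnfaip3 and the MAP kinase phosphatase Dusp1, and interferon made by the cells then switches on a further wave of genes.

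Promoters of 3 LPS-induced genes on which the results below turn are shown here, since all 3 were lower in line 264, by different amounts. Each is the stretch of 250 bases before the gene's start, read in the direction of transcription, from RefSeq with build GRCm38.p6. Capitals mark the cyclic AMP response element (CRE, TGACGTCA) and its core TGACG on either strand, the AP-1 site (TGANTCA), the E-box (CACGTG) and the kappa B site bound by NF-kB.
Dusp1 (chr17:26508473-26508722, minus strand): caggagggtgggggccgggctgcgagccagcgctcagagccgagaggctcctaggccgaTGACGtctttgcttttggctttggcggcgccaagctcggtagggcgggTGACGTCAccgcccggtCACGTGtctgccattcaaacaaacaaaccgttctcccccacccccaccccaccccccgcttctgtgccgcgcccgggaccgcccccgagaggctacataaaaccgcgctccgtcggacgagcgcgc
Il6 (chr5:30012864-30013113, plus strand): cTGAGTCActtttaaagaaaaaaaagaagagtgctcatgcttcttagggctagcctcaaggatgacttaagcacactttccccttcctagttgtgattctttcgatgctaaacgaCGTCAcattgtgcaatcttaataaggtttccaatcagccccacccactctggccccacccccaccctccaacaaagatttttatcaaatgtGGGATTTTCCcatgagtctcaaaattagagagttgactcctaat
Tnfaip3 (chr10:19015411-19015660, minus strand; another RefSeq start is not shown): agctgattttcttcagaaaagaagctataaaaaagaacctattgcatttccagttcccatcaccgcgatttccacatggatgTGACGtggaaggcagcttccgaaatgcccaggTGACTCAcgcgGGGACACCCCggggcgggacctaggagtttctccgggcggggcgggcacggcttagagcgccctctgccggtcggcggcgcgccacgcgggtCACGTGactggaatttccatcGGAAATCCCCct
In the Dusp1 window the CRE lies 143 to 136 bases before the start, the separate core 191 to 187 and the E-box 126 to 121. In that of Il6 the kappa B site lies 44 to 35 bases before the start, the AP-1 site 249 to 243 and the CRE core, on the other strand, 135 to 131. The Tnfaip3 window holds kappa B sites 125 to 116 and 12 to 3 bases before the start, an AP-1 site 136 to 130, a CRE core 168 to 164 and an E-box 33 to 28. Of 32851 RefSeq windows of 300 bases (250 before and 50 after a start, both strands searched, for 27025 genes), 1.79% hold the CRE, 20.8% its core (the CRE included), 7.81% the AP-1 site, 7.15% the E-box and 6.93% the kappa B site. These matches describe the letters and show no binding.

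The edited genes were examined first. After 120 min, H3f3a (mm10 chromosome 1, 180802560 to 180813605) gave 3108 and 2438 normalized reads in RAW264.7 and 182 and 212 in line 264. H3f3b (chromosome 11, 116021961 to 116026039) stood at 34155 and 33056 and at 17765 and 15991. Both genes were thus lower in both line 264 libraries, without overlap, and neither was absent. The difference was -3.80 ± 0.26 for H3f3a (limma adjusted p = 1.1e-05; 14.1-fold in normalized reads) and -1.0 ± 0.15 for H3f3b (limma adjusted p = 0.0017; 1.99-fold). Line 3205 had less H3f3a than line 264, at 53.5 and 37.5 (limma adjusted p = 0.00095 between them), while its H3f3b, at 11416 and 13284, missed the threshold (limma adjusted p = 0.1). Gene totals do not show which transcripts carry an edit, reads of the H3.3 gene pair may be shared with processed copies, and the strand setting of the counting is not stated in what was used here.

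**Figure D1:**
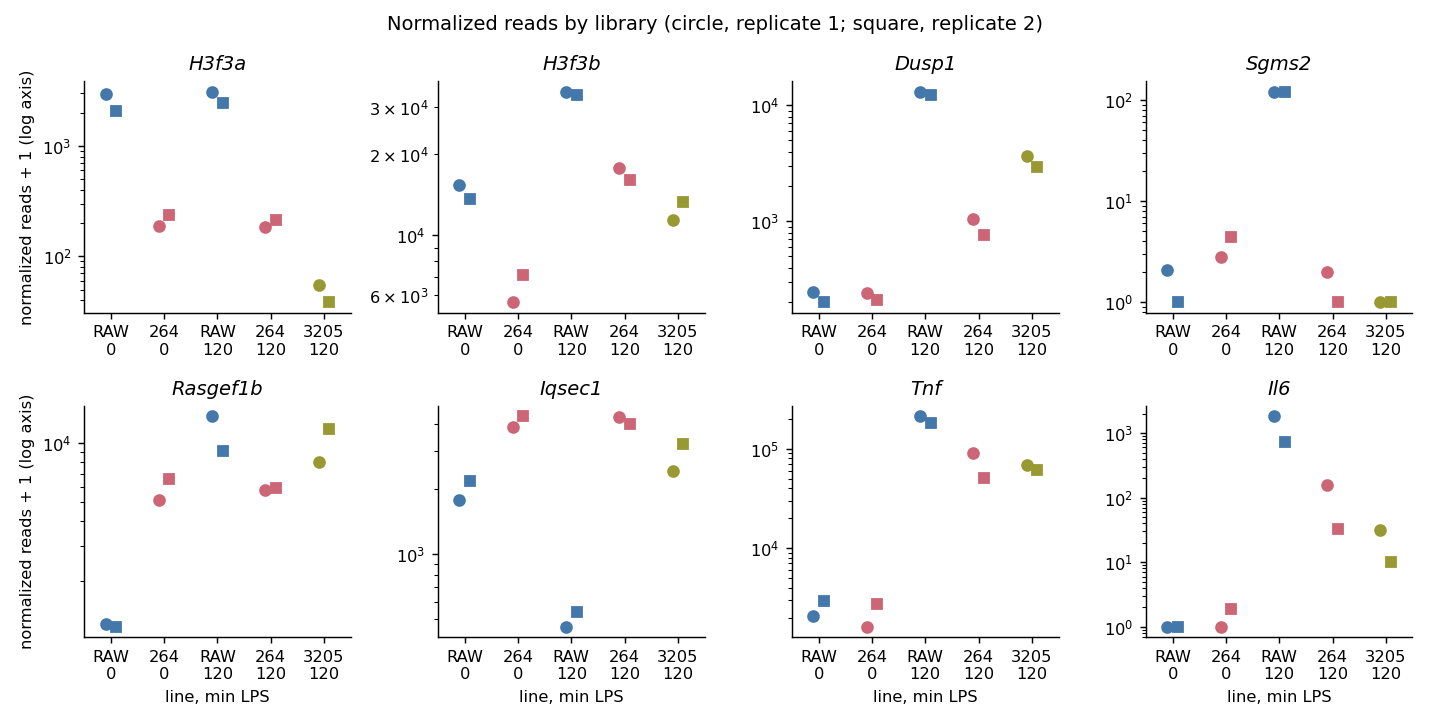
Normalized reads + 1 (log axis) of 8 genes in each library of RAW264.7 and line 264, unstimulated and after 120 min of LPS. Line 3205 is shown after 120 min only. In each group circles are replicate 1 and squares replicate 2. Dusp1 reaches 13141 and 12179 in stimulated RAW264.7 and only 1037 and 763 in line 264, from like unstimulated levels.

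Line 264 differed from its parent at 2348 genes, 1069 lower (6.13% of those tested) and 1279 higher (7.33%). Most of these were differences of at least 2-fold on the log2(value + 1) scale (753 lower, 861 higher), and 137 lower and 85 higher genes differed by a log2 of 5 or more. The median over all genes was 0.01. The replicate numbers pair the libraries, and with the replicate number as a block the calls were 2064 lower (11.8%) and 2351 higher (13.5%). With 1 library left out the calls ran from 512 (without the first RAW264.7 library) to 764 lower, and from 657 (without the same library) to 811 higher; without the second line 264 library they were 603 and 691, without the second RAW264.7 library 703 and 811, and without the first line 264 library 764 and 797.

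Much of the difference was already present before LPS. Unstimulated, 782 genes were lower (4.48%) and 1066 higher (6.11%) in line 264, 1848 in all, and 3631 with the replicate block. Of the genes lower after 120 min, 615 were also lower before, which is 57.5% of the 120 min list and 78.6% of the unstimulated one. For higher genes the overlap was 855, or 66.9% and 80.2% of the respective lists. Across the 17450 genes the differences before and after LPS, which share no library, had Pearson's r of 0.84 and Spearman's rho of 0.64, a description over genes that are not independent replicates. The difference between these 2 contrasts was called for 4 genes by limma, 3 towards lower after LPS (0.0172%) and 1 towards higher (0.00573%), with 654 genes at an unadjusted p below 0.05. With the replicate block the number was 45, and on the recovered reads edgeR called 2 and DESeq2 54.

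**Figure D2:**
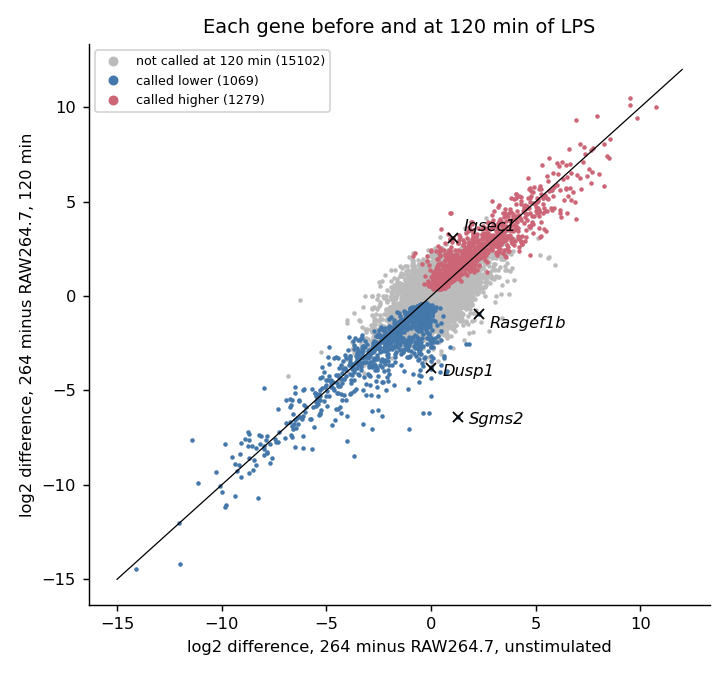
Difference of line 264 from RAW264.7 (log2 of value + 1) for each of 17450 genes, unstimulated on the horizontal axis and after 120 min of LPS on the vertical axis, with the line of equal differences. Most points lie along the line (r = 0.84), and Dusp1, Sgms2, Rasgef1b and Iqsec1, the 4 genes for which limma called a difference between the contrasts, are marked.

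These 4 genes, of which all but Dusp1 are named because the test called them and after their values were seen, differed in how far the call depended on single libraries. With each of the 8 libraries of both contrasts left out in turn, Dusp1 was called 7 times (lost without the first stimulated RAW264.7 library, limma adjusted p = 0.058). Rasgef1b was called once, without the second stimulated RAW264.7 library (0.023), and otherwise stood at up to 0.12. Sgms2 (0.054 to 0.15) and Iqsec1 (0.082 to 0.32) were called in none of these fits. Dusp1, which removes the activating phosphates of p38 and JNK, stood at 243 and 200 in unstimulated RAW264.7 and at 240 and 209 in line 264. After 120 min it stood at 13141 and 12179 in RAW264.7 and 1037 and 763 in line 264, a difference of -3.83 ± 0.21 (limma adjusted p = 3e-06). The difference between the contrasts was -3.85 (limma adjusted p = 0.0036). Its values after 60 min, from a table that was normalized separately, were 10528 and 9890 in RAW264.7 and 1812 and 2571 in line 264, so the lines were apart at both times. Sgms2, a sphingomyelin synthase, was near 0 before LPS and stood at 119 and 120 after 120 min in RAW264.7 against 0.982 and 0 in line 264. That is 184 reads against 1, a ratio of 219 (95% exact counting interval 38.8 to 8696), and the difference was -6.42 ± 0.57 (limma adjusted p = 6.5e-05). After 60 min Sgms2 was at 0 and 0 in RAW264.7 and at 0.695 and 1.73 in line 264.

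Rasgef1b, an exchange factor for Ras-family GTPases that LPS induces, started from a higher level in line 264. Unstimulated it stood at 1203 and 1162 in RAW264.7 and 5150 and 6546 in line 264 (2.29 higher, limma adjusted p = 0.00015). After 120 min it stood at 13741 and 9171 and at 5778 and 5938, so the order of the lines had turned. The 120 min difference was -0.94 ± 0.23 (limma adjusted p = 0.022), a call that was lost without either line 264 library or the first RAW264.7 library (up to 0.19). Rasgef1b was the only gene called in opposite directions before and after LPS. Iqsec1, an exchange factor for Arf GTPases, moved the other way: in RAW264.7 it stood at 1787 and 2178 unstimulated and at 459 and 535 after 120 min, while in line 264 it stood at 3894 and 4347 and then 4314 and 4004. Its 120 min difference was 3.06 ± 0.17 (limma adjusted p = 2.6e-06; 8.36-fold).

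The largest differences were of genes that 1 line hardly expressed. Cd36, a scavenger receptor and fatty acid transporter, stood at 27929 and 18410 in RAW264.7 and at 0 and 0 in line 264, at least 14103-fold lower against a floor of 3 reads over the group. Pcdh7, a protocadherin, stood at 19674 and 18090 against 0 and 0 (at least 11544-fold lower). Neither gene gave a single read in either line 264 library. Lyz1, a lysozyme whose close copy Lyz2 can share its reads, stood at 182938 and 83313 against 25.5 and 31.8 (4645-fold). Lpl, lipoprotein lipase, stood at 98859 and 64966 against 95.2 and 72.1 (979-fold), and the chemokine and scavenger receptor Cxcl16 at 11282 and 7319 against 2.95 and 3.67 (2812-fold). These genes were thus among the more abundant transcripts of the parent. In line 264 Cd36, Pcdh7 and Cxcl16 were at or near 0, while Lyz1 and Lpl were still detected.

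Flrt2, a cell surface protein with leucine-rich repeats, stood at 3673 and 3107 against 0 and 1.22, and its 1 read gives a ratio of 6211 (95% interval 1114 to 245369). Tmem26 stood at 4840 and 1703 against 0 and 2.45, a ratio of 2965 (820 to 24490), and Pvrl3, a nectin, at 936 and 855 against 0.982 and 0, a ratio of 1642 (294 to 64914). Rassf8, Ppic, Ica1 and Ptchd1 had no read in line 264 and were at least 997-fold, 888-fold, 653-fold and 473-fold lower. All 12 calls held whichever library was left out. Such floors and intervals cover counting error only, and the log2(value + 1) scale understates the differences of genes near 0.

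In the other direction, Itih5, an inter-alpha-trypsin inhibitor heavy chain, stood at 1.33 and 0 in RAW264.7 and at 1946 and 2435 in line 264, a ratio of 3338 (599 to 131894). Scn11a, a voltage-gated sodium channel, stood at 0 and 3.79 against 2028 and 2827, and Svopl, a transporter-like protein, at 0 and 2.53 against 1627 and 2320. Mylk, myosin light chain kinase, stood at 1.33 and 1.26 against 1459 and 1692. Each of the 4 was thus near 0 in the parent and well expressed in line 264, by 10.48 ± 0.56, 10.10 ± 0.59, 10.02 ± 0.61 and 9.42 ± 0.44 in log2. Lin28b, the RNA-binding protein that blocks let-7 maturation, stood at 0 and 0 against 304 and 323 (at least 161-fold higher), and Afap1, an actin-binding adaptor, at 0 and 0 against 861 and 632 (at least 390-fold). Batf, an AP-1 family transcription factor, stood at 2.66 and 3.79 against 1421 and 677 (325-fold). Klhl30, Mlxipl, Ppp1r16b, Greb1 and Dgki completed the 12 largest, and these calls too held whichever library was left out.

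Cytokine and chemokine genes were more often lower in line 264 than genes in general. Of 36 listed genes 34 were tested, 11 were lower (32.4%, against 6.13% of all genes) and 1 was higher, with a median of -1.44 (all genes 0.01); the replicate block gave 14 and 4. Before LPS 5 were lower and 1 higher with a median of -0.27. The direct test of the difference between the contrasts before and after LPS called 0 of the 34 genes. Il1rn, the antagonist of the interleukin-1 receptor, stood at 9591 and 10682 in RAW264.7 and 379 and 520 in line 264 (-4.51 ± 0.35, limma adjusted p = 2.5e-05). Il10, an anti-inflammatory cytokine, stood at 374 and 340 against 1.96 and 8.56 (-6.07 ± 0.55, limma adjusted p = 7.8e-05). Both antagonists of inflammation were therefore far lower, without overlap. The chemokines Ccl9 (66255 and 43401 against 8002 and 6380) and Cxcl9 (42.6 and 11.4 against 0 and 0) were lower as well (-2.91 and -4.54). These 4 calls held whichever library was left out.

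The classical inflammatory cytokines were lower with less certainty. Tnf stood at 212251 and 181696 in RAW264.7 and at 91324 and 50509 in line 264 (-1.53 ± 0.40, limma adjusted p = 0.033). Il6 stood at 1831 and 737 against 156 and 31.8 (-4.02 ± 0.83, limma adjusted p = 0.01), and Il1a at 9702 and 5796 against 1207 and 430 (-3.38, limma adjusted p = 0.01). The groups did not overlap, but within each the replicates were spread. The Il6 and Il1a calls, and that of the chemokine Ccl4 (207494 and 115173 against 44529 and 11347), were lost without the second line 264 library or the first RAW264.7 library (limma adjusted p up to 0.1, 0.096 and 0.13), and that of Tnf also without the second RAW264.7 library (up to 0.22). Il1b stood at 79992 and 35316 against 16696 and 2467 and was not called (-3.05 ± 1.32, limma adjusted p = 0.18; with the replicate block 0.0012). Cxcl10 and Cxcl2 were not called either, at -1.0 and -0.43. The 1 higher cytokine, named after its values were seen, was the growth factor Csf2, at 443 and 340 against 6576 and 3770 (3.68 ± 0.64, limma adjusted p = 0.0043).

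Among 34 regulators and inhibitors of NF-kB, 6 were lower (17.6%, against 6.13% of all genes) and 2 higher. The median was -0.20, and the replicate block gave 12 and 3. Tnfaip3, the ubiquitin-editing inhibitor A20, stood at 751 and 936 in unstimulated RAW264.7 and 647 and 468 in line 264, and after 120 min at 34331 and 31941 and at 12750 and 9933. All 4 stimulated values stood far above the unstimulated ones, and the line 264 pair was lower (-1.56 ± 0.20, limma adjusted p = 0.00065), whichever library was left out. Ripk2, the kinase below the NOD receptors, stood at 4190 and 2693 against 1262 and 838 (-1.71) and Bcl3, a nuclear IkB protein, differed by -1.66; both calls were lost without the second line 264 library or the first RAW264.7 library (limma adjusted p up to 0.11 and 0.12). Nfkbia, the inhibitor IkB alpha, stood at 37677 and 37780 against 26996 and 26390 (-0.50 ± 0.13, limma adjusted p = 0.036), a call lost on leaving out any 1 of the 4 libraries (up to 0.16). The higher members were Rela at 0.77 and Chuk at 0.53, both on chromosome 19, whose genes as a group stood higher in line 264 (below).

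Immediate-early genes, which need no new protein to be switched on, did not move one way after 120 min. Of 40, 5 were lower (12.5%, against 6.13% of all genes) and 4 higher (10%, against 7.33%), with a median of -0.08. The replicate block gave 7 and 7. Before LPS 9 were lower and 4 higher with a median of -0.29, where the shares over all genes were 4.48% and 6.11%. Zfp36l1, an mRNA decay factor, stood at 384 and 353 against 3297 and 1816 (2.73, limma adjusted p = 0.00015), and Dusp16, a JNK phosphatase, was higher by 1.27. Klf4 stood at 463 and 172 against 7.86 and 3.67 (-5.46, limma adjusted p = 0.0011). Myc, named after its values were seen, stood at 3977 and 3540 against 242 and 197 (-4.10, limma adjusted p = 0.0015). These 4 calls held whichever library was left out. Egr1, at 8019 and 5688 against 8023 and 4858, was not called (-0.11), and the 2 lines' values overlapped. Fos, at -1.25, missed the threshold (limma adjusted p = 0.09; with the replicate block 0.038).

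Genes of the later waves were taken in 2 lists. Of 29 secondary response genes 4 were lower (13.8%, against 6.13% of all genes) and 3 higher (10.3%, against 7.33%). The median was -0.18, the replicate block gave 8 and 5, and edgeR and DESeq2 each called 3 lower and 4 higher. C3, the central complement component, stood at 884 and 1009 against 13422 and 5191 and was higher (3.14). Irf1, an interferon regulatory factor, stood at 10458 and 7005 against 2099 and 364 (-3.29 ± 0.65, limma adjusted p = 0.0084), a call lost without the first RAW264.7 library (0.076). Of 44 tested interferon-stimulated genes 9 were lower (20.5%, against 6.13% of all genes) and 0 higher, with a median of -1.26. With the replicate block 30 were lower and 0 higher, and edgeR called 5 and 0 and DESeq2 11 and 0. Before LPS limma called 0 of these lower and 0 higher, at a median of -0.14 (2 and 0 at an unadjusted p below 0.05; edgeR 0 and 0, DESeq2 1 and 0). The direct test of the difference between the contrasts before and after LPS called 0 of the 44 genes. Tor3a, an interferon-induced torsin ATPase, stood at 14790 and 13193 against 6903 and 5247 (-1.21 ± 0.17, limma adjusted p = 0.0011) and was the only one of the 9 whose call held whichever library was left out. Daxx, which is both interferon-induced and an H3.3 chaperone, stood at 7758 and 5810 against 3412 and 1536 (-1.55, limma adjusted p = 0.0076), lost without the first RAW264.7 library (0.078). The antiviral enzyme Oas2 and the DNA sensors Ifi204 and Ifi205 differed by -1.11, -2.42 and -4.69, calls lost without the second line 264 library, and without the second RAW264.7 library for Oas2 or the first for Ifi204 and Ifi205 (limma adjusted p up to 0.078, 0.12 and 0.21).

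The receptors and kinases upstream of these genes were looked at next. Of 33 Toll-like receptors and adaptors 3 were lower (9.09%, against 6.13% of all genes) and 1 higher (3.03%, against 7.33%). The replicate block gave 8 and 3. Tlr4, the LPS receptor, stood at 1524 and 1942 in RAW264.7 and 989 and 1138 in line 264 (-0.70, limma adjusted p = 0.0097), a call lost without the first line 264 library or the second RAW264.7 library (up to 0.079). Its co-receptor Cd14 was not called (-0.67). Tlr5, the flagellin receptor, stood at 0 and 0 against 108 and 79.5 (6.55, limma adjusted p = 8.9e-06), and Tlr8, a receptor for RNA, at 59.9 and 34.1 against 0 and 1.22 (-4.95). Of 26 MAP kinase genes and phosphatases (Dusp1 stands with the immediate-early genes) 0 were lower and 6 higher (23.1%, against 7.33% of all genes), and before LPS 0 were lower and 4 higher; the block gave 2 and 9. Map2k1, the kinase that activates ERK, stood at 6966 and 5509 against 18020 and 19466 (1.60, limma adjusted p = 0.00015). Dusp6, an ERK phosphatase, stood at 352 and 606 against 2147 and 6082 (2.97, limma adjusted p = 0.0015), and Map2k6, a p38 activator, at 24 and 39.1 against 198 and 147 (2.44). All 3 calls held whichever library was left out, so the phosphatases Dusp1 and Dusp6 stood apart in opposite directions.

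**Figure D3:**
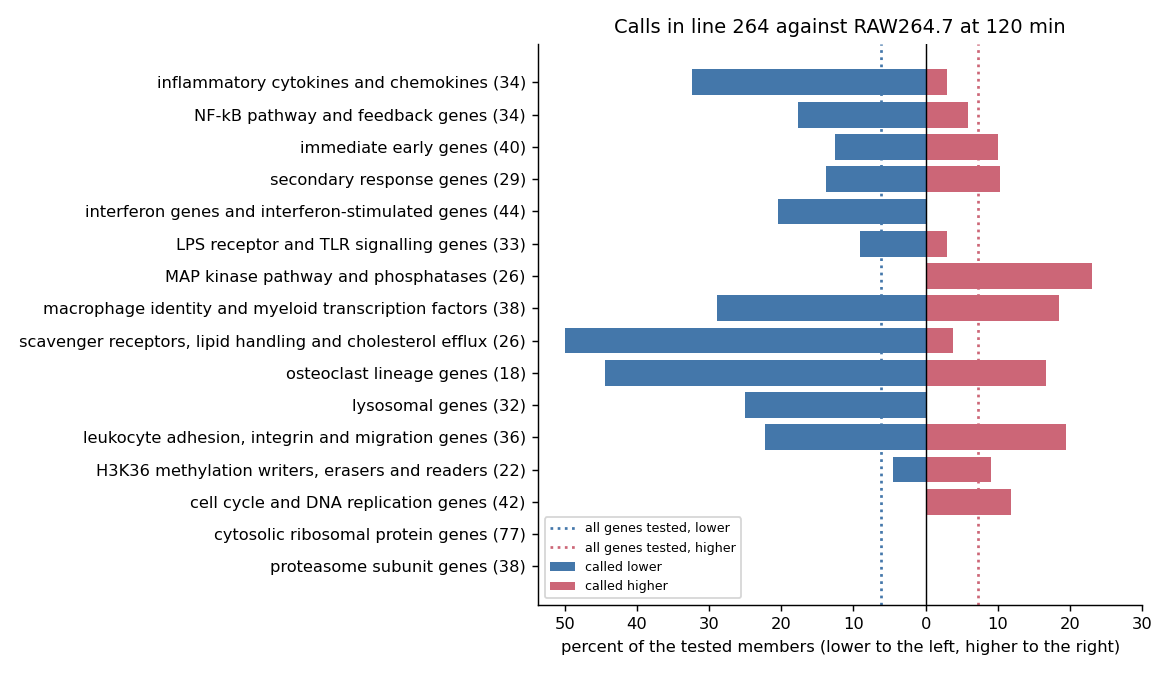
Percent of tested genes called lower and higher in line 264 at 120 min for 16 gene lists, with dotted lines at the shares over all genes (6.13% lower, 7.33% higher). Cytokine, interferon-stimulated, scavenger, osteoclast and lysosomal genes are among the lists with longer lower than higher bars, while MAP kinase and cell cycle genes have higher calls alone.

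The authors' deposited table of primary bone marrow macrophages gave 187 genes raised by LPS, of which 178 were tested here. In line 264, 43 of these were lower (24.2%, against 6.13% of all genes) and 12 higher (6.74%, against 7.33%). The share of higher genes was thus near that of all genes. The median was -0.51, and 114 genes were below 0. With the replicate block 65 were lower and 22 higher, where the shares over all genes were 11.8% and 13.5%. Unstimulated the counts were 24 and 13 with a median of -0.12, and the median difference between the contrasts was -0.33, with 2 genes called. The count of lower genes fell to 15 without the first RAW264.7 library and to 21 without the second line 264 library, and was 34 without the second RAW264.7 library and 38 without the first line 264 library.

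For the same 178 genes the study measured H3S31ph by ChIP in primary macrophages, 1 library at 0 and 1 at 60 min, in a scaling of the authors that is not stated in what was used here. Ordered into 4 groups by the ratio of H3S31ph at 60 over 0 min (0.904 to 2.24, 2.27 to 4.02, 4.02 to 7.29 and 7.35 to 29.8), the median differences in line 264 were 0.10, -0.53, -0.64 and -0.86. Lower genes numbered 8 of 45, 10 of 44, 10 of 44 and 15 of 45, and higher genes 6, 2, 4 and 0. Unstimulated the medians were 0.17, -0.09, -0.12 and -0.29, in the same order, and the median differences between the contrasts were -0.33, -0.11, -0.19 and -0.48. Over the 178 genes Spearman's rho between the H3S31ph ratio and the 120 min difference was -0.17, and it was -0.08 for the H3.3 ratio and -0.03 for the H3K36me3 ratio. These are descriptions across genes that share libraries, from other cells than the lines.

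**Figure D4:**
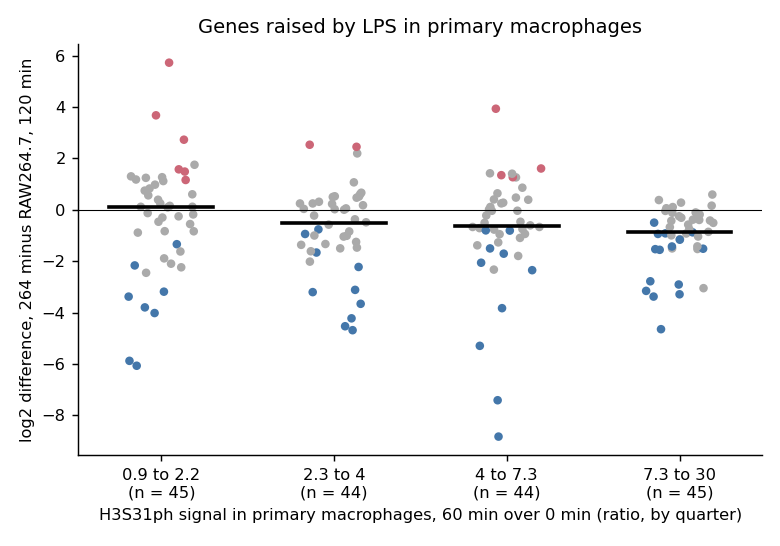
Difference of line 264 from RAW264.7 at 120 min (log2 of value + 1) for 178 genes raised by LPS in primary macrophages, in 4 groups by rising ratio of H3S31ph signal; black bars are medians, blue points genes called lower, red higher and grey not called. The medians are 0.10, -0.53, -0.64 and -0.86, and every group spans genes on both sides of 0.

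Outside the LPS response, genes that mark macrophages were unevenly affected. Of 38 macrophage identity genes 11 were lower (28.9%, against 6.13% of all genes) and 7 higher (18.4%, against 7.33%). The median was -0.47, and before LPS 15 were lower and 6 higher. Csf1r, the receptor for the growth factor M-CSF, stood at 57072 and 57133 in RAW264.7 and at 52786 and 65017 in line 264 and was not called (0.04). Csf3r, the G-CSF receptor, stood at 131 and 115 against 2523 and 2108 (4.22), and Csf2ra, the GM-CSF receptor alpha chain, at 2267 and 2670 against 451 and 225 (-2.95). Of these 3 receptors 1 was thus higher, 1 lower and 1 not called. Tfec, a transcription factor of the MiT family, stood at 389 and 543 against 0 and 1.22 (-8.27), and Lyz2 at 253642 and 213734 against 47661 and 53329 (-2.21, limma adjusted p = 0.00087). Spi1, the transcription factor PU.1 that macrophage fate depends on, stood at 22724 and 20764 against 12779 and 10883 (-0.88, limma adjusted p = 0.014), a call lost without the second line 264 library or either RAW264.7 library (up to 0.1). In these bulk libraries fewer cells expressing a gene and less RNA per cell cannot be told apart.

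Scavenger receptors and genes of lipid handling were lower in larger share. Of 26 tested 13 were lower (50%, against 6.13% of all genes) and 1 higher, with a median of -0.98. The replicate block gave 15 and 2, where the shares over all genes were 11.8% and 13.5%. Before LPS 9 were already lower and 1 higher, with a median of -0.65. Besides Cd36 and Lpl, Msr1, the class A scavenger receptor, stood at 16190 and 12928 against 35.3 and 106 (-7.86), and Pltp, the phospholipid transfer protein, at 2740 and 1127 against 7.86 and 9.78 (-7.49). Both held whichever library was left out. Of 32 lysosomal genes 8 were lower (25%, against 6.13% of all genes) and 0 higher, median -0.26. The tetraspanin Cd63, a marker of lysosomes and exosomes, stood at 5211 and 4531 against 6.87 and 7.34 (-9.23 ± 0.20, limma adjusted p = 1.9e-08), while progranulin (Grn) and cathepsin L (Ctsl) differed by -1.05 and -1.18. With the replicate block 13 lysosomal genes were lower and 5 higher.

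Osteoclasts are the bone-resorbing cells into which RAW264.7 can be differentiated. Of 18 of their genes 8 were lower (44.4%, against 6.13% of all genes) and 3 higher (16.7%, against 7.33%). The median was -1.73, and the replicate block gave 12 lower and 3 higher. Dcstamp, needed for cell fusion, stood at 1324 and 838 against 48.1 and 72.1 (-4.14), its partner Ocstamp differed by -5.26, and Ctsk, the collagen-degrading cathepsin, stood at 189 and 32.8 against 0.982 and 0 (-5.83). Itgb3, the integrin beta 3 chain, went the other way, at 5.33 and 3.79 against 558 and 421 (6.46), as did the protease Mmp9 (2.3). Of 36 adhesion and migration genes 8 were lower (22.2%) and 7 higher (19.4%), or 16 and 8 with the block. Itgal, the alpha chain of LFA-1, stood at 1209 and 918 against 5727 and 4994 (2.34), and Itga5, of the fibronectin receptor, at 34805 and 33681 against 10597 and 12156 (-1.59). The purinergic receptors P2ry12 and P2ry14 were higher by 5.21 and 6.47. Of 32 matrix and protease genes 11 were lower (34.4%) and 4 higher (12.5%). Among the lower ones were Timp2 at 63.9 and 50.5 against 0 and 1.22 (-5.28) and Serpinb2 at 246 and 231 against 0 and 9.78 (-6.19). All calls named here held whichever library was left out.

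Receptors of the immune cell surface were likewise split. Of 31 costimulatory, lectin and TREM genes 7 were lower (22.6%, against 6.13% of all genes) and 6 higher (19.4%, against 7.33%). With the block 14 were lower and 7 higher, where the shares over all genes were 11.8% and 13.5%. Trem1, which amplifies inflammatory signals, stood at 26.6 and 22.7 against 1237 and 1252 (5.6, limma adjusted p = 2.3e-07) and its neighbour Trem3 was higher by 4.60. Clec7a, the beta-glucan receptor Dectin-1, stood at 1116 and 1026 against 18.7 and 24.5 (-5.58) and Clec12a was lower (-5.0). The 2 families therefore differed in direction for these members. Of 20 complement and Fc receptor genes 3 were lower (15%) and 5 higher (25%), or 7 and 5 with the block. The Fc receptors Fcgr2b and Fcgr1 were higher by 2.41 and 1.26. Of 14 MHC class II genes 2 were lower (14.3%) and 0 higher, or 2 and 2 with the block. The lower ones were Ifi30 at -1.0 and Ctss at -1.17. The Ctss call was lost without the second line 264 library or the first RAW264.7 library. Of 23 MHC class I genes 1 was lower (4.35%) and 0 higher, or 6 and 3 with the block.

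Among chromatin genes, the 15 H3.3 genes, chaperones and partners include the edited H3f3a and H3f3b, both lower. With the block 4 of the 15 were lower and 2 higher. Without the block 4 were lower (26.7%, against 6.13% of all genes) and 1 was higher (6.67%, against 7.33%). Besides H3f3a, H3f3b and Daxx these were Atrx, the remodeller that works with Daxx (-0.63), and the chaperone Asf1a (0.53); the Atrx call was lost without either line 264 library or the second RAW264.7 library, and that of Asf1a on leaving out any 1 of the 4 (limma adjusted p up to 0.074 and 0.14). Of 22 writers, readers and erasers of H3K36 methylation 1 was lower (4.55%) and 2 higher (9.09%), near the shares of all genes. Nsd1, a methyltransferase for H3K36me2, stood at 465 and 564 in unstimulated RAW264.7 and 0.910 and 8.55 in line 264, and after 120 min at 261 and 265.1 and at 3.93 and 6.11 (-5.48 ± 0.71, limma adjusted p = 0.0007). Nsd1 was thus near 0 in line 264 at both times. Setd2, the H3K36me3 methyltransferase whose activity H3S31ph is known to favour, and Zmynd11, a reader of K36me3 on H3.3, were not called (-0.05 and -0.02, limma adjusted p = 0.89 and 0.96).

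Of 38 Polycomb and heterochromatin genes 2 were lower (5.26%, against 6.13% of all genes) and 4 higher (10.5%, against 7.33%). The block gave 3 and 10. Dnmt3a, a de novo DNA methyltransferase, stood at 10037 and 11601 against 2446 and 2353 (-2.17 ± 0.13, limma adjusted p = 5.6e-06), and Jarid2, a Polycomb cofactor, at 6738 and 4924 against 2805 and 2638 (-1.08). Both held whichever library was left out. Of 43 genes of transcription elongation and acetylation 3 were lower (6.98%) and 2 higher (4.65%), or 3 and 9 with the block.

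Cell cycle and housekeeping genes followed. Of 42 cell cycle genes 0 were lower and 5 higher (11.9%, against 7.33%; 2 and 13 with the block), median 0.24. Ccnd2, cyclin D2, stood at 246 and 252 against 5212 and 5920 (4.47), and this call held whichever library was left out. Ccnd1, cyclin D1, stood at 12770 and 15501 against 35365 and 38068 (1.38), a call lost on leaving out any 1 library (limma adjusted p up to 0.12). By limma 0 of 77 ribosomal protein genes, 0 of 38 proteasome genes and 0 of 51 replication-coupled histone genes were called in either direction, with medians of -0.14, -0.09 and 0.20. At an unadjusted p below 0.05 limma gave 3 lower and 0 higher, 4 and 1, and 1 and 3, and the replicate block 3 and 0, 3 and 1, and 1 and 1. Of the same lists edgeR called 0 and DESeq2 0 ribosomal, 1 lower and 1 higher proteasome and 1 lower histone gene. Of 78 oxidative phosphorylation genes 1 was lower (1.28%, against 6.13% of all genes) and 3 higher (3.85%, against 7.33%). The block gave 6 and 7.

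Single genes of metabolism stood apart more than their lists. Aldoc, an aldolase, stood at 3976 and 2546 against 25.5 and 17.1 (-7.18). Its glycolysis list of 35 had 1 lower (2.86%, against 6.13% of all genes) and 4 higher (11.4%, against 7.33%), or 5 and 7 with the block. Ptger4, the prostaglandin receptor EP4, stood at 1151 and 1204 against 32.4 and 11 (-5.88), Ass1, which makes argininosuccinate, differed by -6.55, and Txnip, the thioredoxin inhibitor, by 2.42. Their list of 37 itaconate, arginine and prostaglandin genes had 6 lower (16.2%) and 5 higher (13.5%), or 11 and 8 with the block. Of 38 cytokine receptor and JAK-STAT genes 7 were lower (18.4%) and 6 higher (15.8%), or 11 and 11 with the block. Il1r1 was higher by 5.81 and Jak3 by 1.45, and Stat5a stood at -1.60. These calls held whichever library was left out. The remaining lists are set against 6.13% lower and 7.33% higher over all genes. Of 35 p53 and apoptosis genes 4 were lower and 4 higher (11.4% each). Stress response gave 3 and 1 of 31 genes (9.68% and 3.23%, with the block 5 and 9). Sterol and fatty acid synthesis gave 1 and 0 of 31 (3.23% lower, with the block 4 and 1). Inflammasome and purinergic genes gave 5 and 2 of 27 (18.5% and 7.41%, with the block 7 and 8). Factors of mRNA decay and translation gave 3 and 1 of 26 (11.5% and 3.85%, with the block 4 and 2). Among large families, 29 of 262 solute carriers were lower (11.1%) and 41 higher (15.6%). The 319 zinc finger genes named Zfp gave 18 lower (5.64%) and 20 higher (6.27%), near the shares of all genes. Of 19 Hox genes 3 were lower (15.8%) and 2 higher (10.5%). For these families the block gave 47 and 59, 44 and 37, and 3 and 4, where all genes had 11.8% and 13.5%.

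Higher genes were concentrated on a pair of chromosomes. Of 16155 tested genes matched to a position (92.6%), 217 of 954 on chromosome 1 were called higher (22.8%) and 153 of 545 on chromosome 19 (28.1%). Over the genes that averaged at least 50 normalized reads, the median was 0.42 on chromosome 1 (640 genes) and 0.52 on chromosome 19 (403 genes). The medians of the other autosomes and X lay between -0.11, on X, and 0.01, and the 4 such genes of Y had a median of 0.30. On chromosomes 1 and 19 together 370 of 1499 genes were higher (24.7%) and 56 lower (3.74%), and elsewhere 877 of 14654 (5.98%) and 985 (6.72%). The shift was there before LPS, at medians of 0.43 and 0.50. Line 3205 had a median of 0.42 on chromosome 1, -0.09 on chromosome 19 and 0.54 on chromosome 15. DNA copy number was not measured in the data used here, and its part in the result was not tested.

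An alternative added after the data were seen set each chromosome's median to 0, and only genes matched to a chromosome entered this fit. Without centring, matched genes gave 985 lower and 877 higher outside chromosomes 1 and 19, and 56 and 370 on them. With centring 963 genes were lower and 1058 higher, and 105 and 126 of these lay on chromosomes 1 and 19. Several called genes named above or in their lists lie there: Rela moved from 0.77 to 0.28, Chuk from 0.53 to 0.04, the kinase Rps6ka4 from 0.82 to 0.33, the H3K36 demethylase Kdm2a from 0.81 to 0.32 and the immediate-early gene Ier5 from 0.96 to 0.56. H3f3a, Il10 and Tlr5 also lie on chromosome 1, with differences far beyond this shift.

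**Figure D5:**
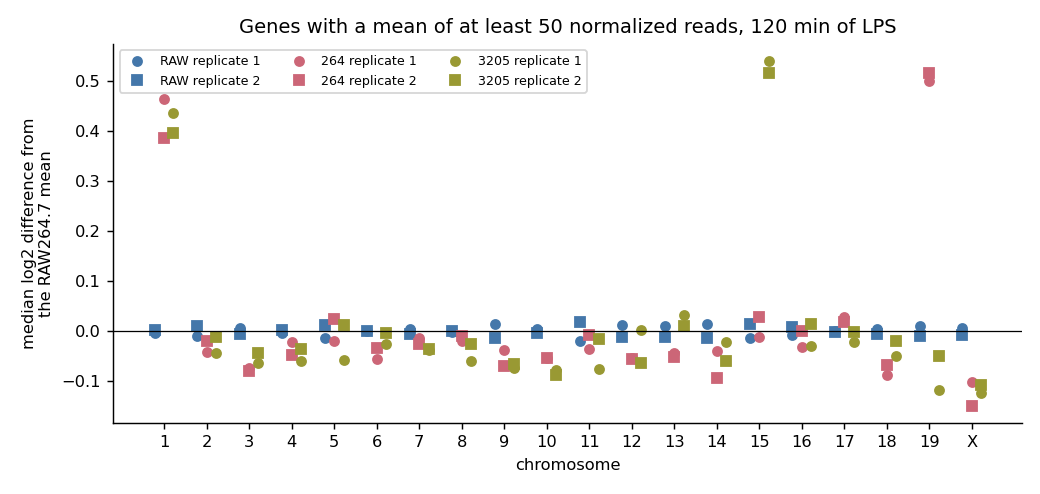
Median log2 difference per chromosome, over genes averaging at least 50 normalized reads, in each 120 min library of RAW264.7, line 264 and line 3205 against the RAW264.7 mean; circles are replicate 1 and squares replicate 2. Both line 264 libraries stand well above 0 on chromosomes 1 and 19, both line 3205 libraries on 1 and 15, and the other chromosomes lie near 0.

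Markers of other cell types were checked as summed normalized reads. The macrophage markers were present in both lines, at 432109 to 513613 in RAW264.7 and 240455 to 259351 in line 264, most of the drop being Lyz2. Of these 10 markers 3 were lower (30%, against 6.13% of all genes; Lyz2, Spi1 and Tlr4), 1 was higher (Fcgr1) and 6 were not called (Csf1r 0.04, Emr1 0.40, Itgam 0.14, Mpeg1 0.07, Cd68 -0.53 and Cd14 -0.67), and with the replicate block 4 were lower and 1 higher. The 12 neutrophil markers summed to 37.9 to 38.6 in RAW264.7 and 550 to 709 in line 264, nearly all of it Lcn2 (mean 29.4 and 609), a gene that LPS also induces and whose call was lost without the second RAW264.7 library (limma adjusted p 0.052). Of the 12, 7 were at 0 in both RAW264.7 libraries, and Ly6g and Ngp were at 0 in line 264 too. The part of other cells in the results was not tested. B cell markers summed to 1082 to 1181 and 720 to 749, with Pax5 and Ms4a1 at 0, and dendritic cell markers to 10200 to 11896 and 10578 to 14027. T and NK cell markers gave 104 to 250 and 127 to 202, and mast cell markers 716 to 1051 and 646 to 1455. Erythroid, fibroblast and epithelial or endothelial markers gave 55.9 to 75.7 and 27.5 to 40.4, 26.5 to 49.3 and 18.7 to 33.0, and 8.84 to 12 and 37.3 to 85.6.

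Line 3205 was compared with the same RAW264.7 libraries, which the 2 comparisons share, so only values are set side by side. After 120 min 1045 genes were lower (5.99%) and 1385 higher (7.94%) in line 3205. A direct test between the edited lines called 736 genes lower in line 3205 than in line 264 (4.22%) and 834 higher (4.78%), or 3400 in all with the replicate block against 1570 without, so the lines differed from each other as well as from the parent. Cytokine genes gave 9 lower and 0 higher in line 3205 (median -0.96) against 11 and 1 in line 264, interferon-stimulated genes 14 and 0 (-1.60) against 9 and 0, and macrophage LPS genes 49 and 11 (-0.73) against 43 and 12. Scavenger and lipid genes gave 5 and 7 (0.13) against 13 and 1.

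Several genes named above differed between the edited lines. Dusp1 stood at 3629 and 2948 in line 3205, between line 264 and RAW264.7 (1.88 ± 0.21 above line 264, limma adjusted p = 0.00055). Il10, at 257 and 294, and Il1rn, at 6910 and 5216, stood above line 264 (limma adjusted p = 0.0002 and 0.00015). Both genes were below their RAW264.7 values without overlap. For Il10 the difference of line 3205 from RAW264.7 was not called (-0.37, limma adjusted p = 0.75). Lpl, at 14045 and 13232, was also above line 264 (7.34, limma adjusted p = 5.8e-06), and Tlr4, at 3605 and 3237, was above line 264 (limma adjusted p = 7.8e-05) and above RAW264.7 in both libraries. Other genes had like values in both edited lines: Tnfaip3 stood at 9955 and 12557 (-0.01 ± 0.20 between the lines, limma adjusted p = 0.99), Dnmt3a at 1994 and 2450 (-0.12 ± 0.13, limma adjusted p = 0.73), Nsd1 at 3.87 and 11.1 (0.38 ± 0.71, limma adjusted p = 0.86) and Mylk at 1912 and 1853 (0.26 ± 0.44, limma adjusted p = 0.85). These intervals do not show that the lines were alike. Lin28b was at 0 and 0 in line 3205, as in the parent, and Svopl at 6.45 and 9.03.

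The authors' deposited table for the same comparison gave an adjusted p for 16660 genes, with 302 lower and 299 higher below 0.05, and all of these were also limma calls here. The smallest absolute log2 difference among the calls of the authors' deposited table was 1.51. It gives Dusp1 -3.81 (SE 0.23, adjusted p 8.4e-33) and H3f3a -3.82 (SE 0.24, adjusted p 2.9e-29). In the authors' deposited table Il6 stood at -3.77 (adjusted p 0.017), while Tnf at -1.47, Tnfaip3 at -1.55 and H3f3b at -0.99 did not pass (adjusted p 1, 0.23 and 1). The null of the authors' test is not stated in what was used here. H3f3b did not pass although its SE there was only 0.13. The test may thus have asked for more than a difference from 0, which is what limma tested here. Genes that did not pass there can therefore still differ from 0.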

How the data were processed

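RNA of 6 groups of 2 cell line libraries was used (RAW264.7, line 264 and line 3205, unstimulated and after 120 min of LPS), of 74 samples in the series; the rest was not analysed here, apart from the 60 min values of 4 genes and the primary macrophage ChIP and LPS tables. Total RNA was sequenced from TruSeq libraries, per the labels' protocols. The submitters' processing notes name Trim Galore 0.5.0 for trimming, STAR 2.4.2 and the build mm10 for alignment, featureCounts (Subread 1.4.6) for counting, and DESeq2 with R 3.4.0. The deposited signal is a read count over 1 size factor per library: 100.0% of the values came out whole within 0.1 read, with 0.0681 the largest distance. For ChIP the authors deposited a signal for each gene, of unstated scaling. The authors' deposited comparisons hold log2 fold changes, their errors and a raw and an adjusted p-value, per the file headers. A total of 4 library columns in the tables could be tied to no sample here and were not used.

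From these values log2(value + 1) was taken, and the trend model of limma 3.58.1 (R 4.3.3) was fitted, with 1 mean per group over the 12 libraries. Genes needed a mean of at least 1, and p-values were adjusted by Benjamini-Hochberg over all genes. edgeR 4.0.16 and DESeq2 1.42.0 were run on the recovered reads. On data simulated for the 120 min comparison, 12.8% of the limma calls and 5.5% of the edgeR calls were false, at an aim of 5%. In the same simulation limma found 90 of 100 genes changed by a log2 of 1 and 100 of 100 changed by 2. The simulation gave all genes the same dispersion and no replicate effect, and changed only genes with a mean of at least 50. These rates therefore need not hold for the real libraries. Replicate 1 minus replicate 2 correlated between every pair of groups (15 pairs, r 0.224 to 0.556, median 0.308), so the numbers pair the libraries and a fit with the replicate number as a block was run beside each result.

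The members and the 46 gene lists were chosen with earlier results of these data known. Named genes were the 12 largest differences in either direction, for called genes that averaged 50 or more in the higher group with no overlap of replicates, predicted genes aside, a panel of 29 genes, and the 5 members of each list with the smallest p. Promoter windows were matched by gene symbol, for 10568 of the tested genes (60.6%), too few to compare motifs between called and other genes. Tables and plots were made in Python 3.11.15 using matplotlib 3.10.9, pandas 2.3.3, numpy 2.4.6 and scipy 1.17.1.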

Additional observations from a re-analysis of the deposited data

Results flagged for a closer look

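The response to LPS differed between line 264 and RAW264.7, by a test of the difference itself, for 4 genes. The log2 difference of the contrasts (120 min minus unstimulated) was -3.85 for Dusp1, 2.0 for Iqsec1, -3.23 for Rasgef1b and -7.70 for Sgms2 (limma adjusted p = 0.0036, 0.035, 0.016 and 0.016). Leaving out 1 library left 0 to 2 genes called, with Iqsec1 and Sgms2 called in none of the 8 fits, and the replicate block gave 45.

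Of the 24 largest differences of line 264 from RAW264.7, 12 also differed between line 3205 and line 264 at 120 min in the direct limma test. Line 3205 was higher for Flrt2 (4.92, limma adjusted p = 0.0019), Lpl (7.34, 5.8e-06), Ptchd1 (4.46, 0.00011) and Pvrl3 (3.70, 0.0074). It was lower for Itih5 (-5.77, limma adjusted p = 0.0002), Scn11a (-2.92, 0.013), Svopl (-7.81, 4.8e-05), Afap1 (-1.32, 0.03), Lin28b (-8.30, 3.2e-06), Ppp1r16b (-2.71, 0.0019), Batf (-2.11, 0.023) and Greb1 (-3.21, 0.0082). The genes were chosen for extreme values of the same 2 line 264 libraries that enter this test.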

How the results depend on the processing

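With the replicate block, lower calls went from 1069 to 2064, higher from 1279 to 2351, unstimulated from 1848 to 3631, those of the difference between contrasts from 4 to 45, those between lines 3205 and 264 from 1570 to 3400, and lower macrophage LPS genes from 43 to 65. edgeR with the replicate block gave 1856, 2246, 3525, 42, 3433 and 65 in the same order, and a fit of only the libraries compared 489, 567, 852, 1, 275 and 22. Leaving out 1 library gave 512 to 764 lower, 657 to 811 higher, 901 to 1244 unstimulated, 0 to 2 for the difference between contrasts, 717 to 908 between the edited lines and 15 to 38 macrophage LPS genes. The cause was not tested, beyond the smaller number of libraries.

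The difference between contrasts also gave 54 with DESeq2, 2 with edgeR and 14 with a pseudocount of 5. An added minimum log2 change of 1 left 1003 between the edited lines. The authors' deposited table gave 302 lower, 299 higher and 15 macrophage LPS genes, and H3f3b at -0.99 did not pass there. Other settings kept the 120 min counts within 1.5 times: edgeR 892 lower and 1143 higher, DESeq2 1252 and 1495, no trend 874 and 1058, quantile normalization 1008 and 1254.

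Of 245 named genes 175 were called; the block ended 0 of these calls and added 28, limma without trend ended 25, centring per chromosome 10, quantile normalization 8, edgeR 7, no filter on low values 7 and DESeq2 6. The authors' deposited table did not pass 84, a fit of only the libraries compared 66, and leaving out 1 library ended 31 to 47. Ndufv1 alone changed sign, from 0.48 to -0.003 with centring per chromosome, of which the construction is the cause. Near 0 reads, depth limits a gene to a floor or an interval.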
